A study of Homo sapiens with 12 samples.

Results

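The genes described here are 50 genes of the short arm of chromosome 17, from WRAP53 to MAP2K3 in GRCh38 coordinates. They were taken by symbol from a list of genes lying between these ends that had at least 600 counts over the 12 libraries. The genes were chosen by their measured levels, because this block was lower with linc-ADAIN knockdown (KD). The KD differences below are therefore a description, with no p given, and counts of genes past the threshold used for all genes are not evidence of a difference. The count table held 28901 gene names, 11811 of them with at least 600 counts, and 238 names start in the block itself. Of those 238, 145 had fewer than 600 counts and 43 had enough counts but are not on the list. The listed gene closest above the count limit was CENPV, with 779 counts, and the gene closest under it was USP32P3, with 555 counts and log2 fold changes of -0.63 without LPS and -0.50 with LPS.

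RNA-seq was performed on day 14 adipocytes differentiated from ASC52telo, a line of human adipose-derived mesenchymal stem cells immortalized with hTERT. The cells carried lentiviral pLVX-shRNA2 with scramble shRNA or linc-ADAIN shRNA, which knocks down a lincRNA of adipose tissue, and were sorted for the ZsGreen marker of the vector. Both shRNAs were sequenced without LPS and after LPS (100 ng/mL for 4 h). The 4 groups of 3 libraries are called scramble, KD, scramble with LPS and KD with LPS. All came from the same line, labelled wild type in genotype, and the hairpin, the transduced and sorted population and the knockdown cannot be told apart in this design. The labels do not say whether the libraries of a group came from separate cultures. The paper's figure legends describe the RNA-seq of KD against scramble as a single experiment in triplicate, and do not mention the LPS libraries there. The libraries of a group are therefore not taken as independent experiments. The p-values measure the spread between these libraries, which may be technical. The targeted lincRNA was not analysed here.

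Counts on named genes ran from 28.4 to 53.8 M per library (M, 1e6 counts), with the highest group median in scramble (53.5) and the lowest in KD with LPS (34.8). Log2 levels of libraries of the same group correlated at 0.973 to 0.988. The 10 adipocyte markers on the list fixed for this check (ADIPOQ, PLIN1, PPARG and others) were detected in all groups apart from LEP, which stayed under 1 CPM (counts per 1e6 counts of a library, scaled by TMM). Their summed level was 3433 to 4715 CPM in scramble and 753 to 2003 CPM in KD, and 3945 to 4658 CPM against 616 to 1311 CPM with LPS. Of these markers, 7 passed the test as lower in KD without LPS and 8 with LPS, and none was higher. The 5 measured macrophage and leukocyte markers summed to 57.3 to 61.0 CPM in scramble and 88.8 to 118 CPM in KD, and to 60.8 to 71.4 CPM against 80.5 to 109.5 CPM with LPS, with PTPRC, LYZ and ITGAM under 1 CPM. They did not move together, with 1 lower and 1 higher in KD without LPS, and 1 lower and 2 higher with LPS. The 4 endothelial markers summed to 15.3 to 19.0 CPM in scramble and 9.28 to 10.1 CPM in KD, and to 10.3 to 11.6 CPM against 5.4 to 9.67 CPM with LPS, with CDH5 under 1 CPM. Of these, 1 was lower and none higher in KD without LPS, and 2 were lower and 1 higher with LPS. The 4 epithelial markers summed to at most 1.24 CPM in any library. Of 7 measured stromal markers, 3 were lower and 2 higher in KD in either LPS state. The part of these differences in the values below was not tested, and in bulk RNA fewer cells of a type cannot be told apart from less RNA per cell.

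The short arm of chromosome 17 carries gene-dense segments bordered by long repeats. Its band 17p12 holds PMP22, a myelin protein gene of inherited neuropathy, and its band 17p11.2 holds RAI1, the transcriptional regulator affected in Smith-Magenis syndrome. The genes of the block belong to no common pathway. They include the MAP kinase kinase genes MAP2K4, whose product activates JNK and p38, and MAP2K3, whose product activates p38, as well as regulators of chromatin, enzymes of lipid, folate and heparan sulfate metabolism, and parts of the cytoskeleton and of membrane traffic. LPS is a bacterial lipid that signals through TLR4 to NF-kappaB and the MAP kinases.

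Ordered along the chromosome, the genes did not behave as 1 block. The 18 genes that start before PMP22, on the side of the chromosome end, had a median log2 fold change of 0.049 in KD without LPS, and 8 of them lay below 0. The 32 genes from PMP22 on had a median of -0.84, a 1.79-fold lower level, and 30 of them lay below 0. Their quartiles were -1.18 and -0.46. Over all 50 genes the median was -0.50 with a standard deviation of 0.73, and 38 lay below 0, beside 48.1% of all genes. The median over 16217 genes tested was 0.024, and that over all genes with at least 600 counts was -0.015. The split at PMP22 was chosen after the values were seen. The label of a lowered block therefore describes most genes of the stretch from PMP22 to MAP2K3, but not its whole inner end. ULK2 and AKAP10, the listed genes between ALDH3A2 and MAP2K3, were at 0.14 and -0.092 without LPS. With LPS they were at -0.0075 and 0.11. MAP2K3, the last gene, was at -0.88 without LPS and -0.14 with LPS. The outer stretch from WRAP53 to HS3ST3B1 is described beside it.

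**Figure D1:**
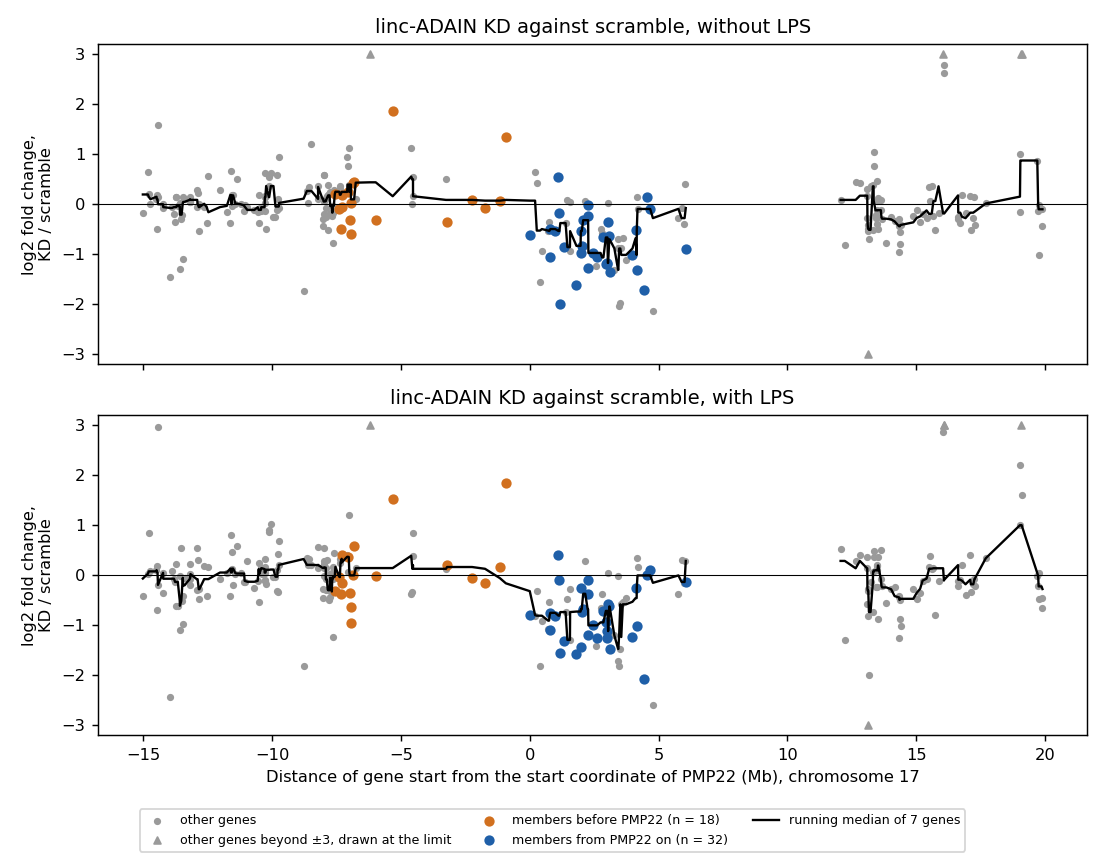
Log2 fold change of KD against scramble (y axis) of genes of chromosome 17 with at least 600 counts, by distance of the gene start from the start coordinate of PMP22 in Mb (x axis), without LPS (top) and with LPS (bottom). Orange points are the 18 listed genes before PMP22, blue points the 32 from PMP22 on, grey points other genes and the line a running median of 7 genes. The line goes below 0 around PMP22 in both panels, and the medians before and from PMP22 on are 0.049 and -0.84 in the top panel.

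Genes on either side of the block were set beside it, but they lie too far from PMP22 to mark where the lower stretch begins. In KD without LPS, 107 genes of chromosome 17 before WRAP53 had a median log2 fold change of 0.012, and 500 genes after MAP2K3 had a median of -0.085. The medians of the other 22 chromosomes ran from -0.26, on chromosome 13, to 0.11, and that of chromosome 17 as a whole was -0.066. Medians of whole chromosomes do not show whether a stretch of another chromosome was shifted. Among the genes shortly before WRAP53, FXR2 and SAT2 had log2 fold changes of -0.030 and 0.28. The nearest genes after MAP2K3 that had enough counts start over 6009 kb further on, across the centromere. They were WSB1 at 0.086, KSR1 at -0.82 and LYRM9 at 0.44. Genes of the block that are not on the list showed the same order of medians. The 13 before PMP22 had a median of 0.50 and the 30 from PMP22 on had a median of -0.51, with 22 of 30 below 0. One of them, chosen after its values were seen, was SREBF1, a transcription factor of lipid synthesis, at 134 ± 13.6 CPM in scramble and 57.0 ± 5.23 CPM in KD (SD, n = 3), a log2 fold change of -1.23 (standard error 0.099). With LPS its log2 fold change was -1.42 (standard error 0.13).

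By the threshold used for all genes (adjusted p under 0.05 in edgeR), 26 of the 50 genes were lower and 3 higher in KD without LPS. Over all genes 15.1% were lower and 12.1% higher. Since this contrast chose the genes, these counts are a description and nothing is read from them. From PMP22 on the counts were 24 lower and none higher of 32, and before PMP22 2 lower and 3 higher of 18. A log2 fold change of -1 or less was seen in 12 genes, all of them from PMP22 on, beside 8.31% of all genes. All 3 KD libraries lay below all 3 scramble libraries in 30 genes, 25 of them from PMP22 on, beside 22.5% of all genes. The reverse was seen in 5 genes, beside 20.1% of all genes.

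The largest difference in KD without LPS was that of TRPV2, a cation channel of the plasma membrane (chr17:16415571-16437003, plus strand). Its level was 22.4, 26.99 and 19.6 CPM in the scramble libraries and 5.68, 5.11 and 6.42 CPM in KD. With LPS it was 14.8, 14.3 and 20.2 CPM in scramble and 6.54, 5.89 and 4.25 CPM in KD. Every KD library lay below every scramble library in both LPS states, with log2 fold changes of -2.0 (standard error 0.15) without LPS and -1.56 (standard error 0.20) with LPS. ALDH3A2, the fatty aldehyde dehydrogenase of the endoplasmic reticulum (chr17:19648136-19685760, plus strand), was at 128, 115 and 140.1 CPM in scramble and 47.2, 36.9 and 32.5 CPM in KD. With LPS its libraries were at 187, 153 and 152 CPM in scramble and 40.6, 40.3 and 36.2 CPM in KD. The groups did not overlap, and the log2 fold changes were -1.71 (standard error 0.13) and -2.07 (standard error 0.10). MPRIP, which tethers myosin phosphatase to actin and RhoA (chr17:17042457-17217679, plus strand), had the most counts among the signalling genes. Its level was 472, 445 and 444 CPM in scramble and 155, 151 and 140.1 CPM in KD, and 379, 383 and 375 CPM against 121, 130.01 and 131 CPM with LPS. The 3 libraries of each group lay close together, and the KD level was 3.04 times lower without LPS, with log2 fold changes of -1.61 (standard error 0.075) and -1.57 (standard error 0.072).

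At the other end of the order were GAS7, HS3ST3B1 and CENPV. GAS7, an F-BAR protein that binds actin and membranes (chr17:9910606-10198606, minus strand), was at 3.02, 3.33 and 3.72 CPM in scramble and 12.6, 11.3 and 12.4 CPM in KD. With LPS it was at 2.40, 2.68 and 2.48 CPM and 5.35, 7.08 and 9.28 CPM. It was higher in every KD library, by 3.62 times without LPS, with log2 fold changes of 1.85 (standard error 0.16) and 1.52 (standard error 0.25). HS3ST3B1, a heparan sulfate 3-O-sulfotransferase (chr17:14301081-14349404, plus strand), is the listed gene next to PMP22 on the outer side. Its libraries were at 37.6, 31.7 and 37.2 CPM in scramble and 85.5, 97.6 and 85.7 CPM in KD, and at 23.98, 24.5 and 30.02 CPM and 97.2, 85.6 and 99.4 CPM with LPS. It was again higher in every KD library, with log2 fold changes of 1.34 (standard error 0.095) and 1.84 (standard error 0.11). Its paralogue HS3ST3A1, which lies before it on the chromosome, had log2 fold changes of -0.068 and -0.16, and 13.7% of its 31-base words occur in other genes. CENPV, a centromere protein gene at low counts (chr17:16342534-16353656, minus strand), was at 1.75, 1.71 and 1.93 CPM in scramble and 2.77, 2.43 and 2.67 CPM in KD. With LPS the spread was wider, at 0.588, 1.39 and 0.211 CPM and 1.10, 0.495 and 1.27 CPM, and the groups overlapped. Its log2 fold changes were 0.55 (standard error 0.27) and 0.40 (standard error 0.73).

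**Figure D2:**
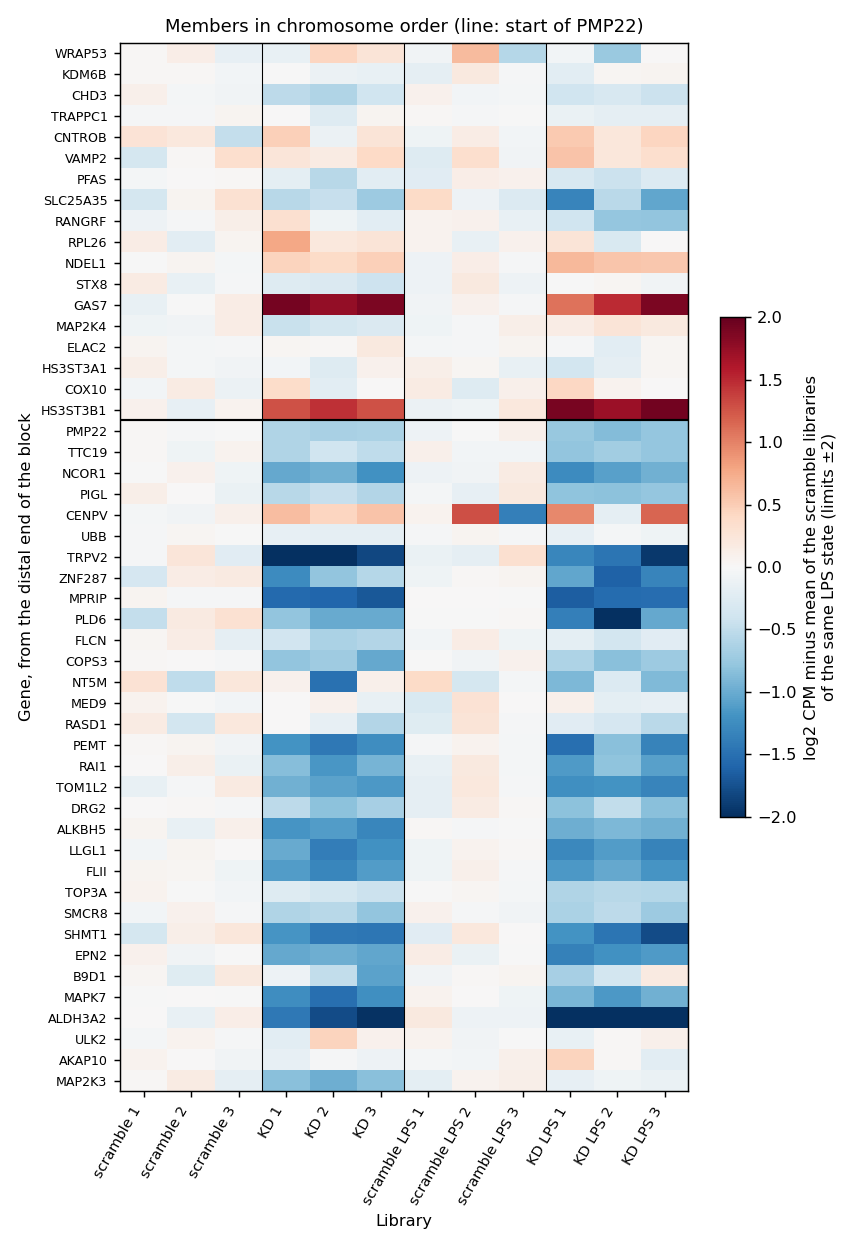
Each of the 50 genes (y axis, in chromosome order from the distal end) in each of the 12 libraries (x axis), as log2 CPM minus the mean of the scramble libraries of the same LPS state, with colours limited at ±2. Below the line at the start of PMP22 most cells of the 6 KD libraries are blue, and above it GAS7 and HS3ST3B1 are red.

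Among the signalling genes from PMP22 on, 7 of 8 lay below 0 in each LPS state, with medians of -0.60 without LPS and -0.32 with LPS. This stretch was chosen on these values, so the direction of this and the following counts by role was largely set in advance. Of all genes, 48.1% lay below 0 without LPS and 47.9% with LPS. With MAP2K4 included, the 9 signalling genes had medians of -0.54 and -0.27. MAPK7, the kinase ERK5, had log2 fold changes of -1.31 and -1.01. DRG2, a GTP-binding protein, was at -0.66 and -0.72. FLCN, which links nutrients to mTORC1, was at -0.54 and -0.27. ULK2, a kinase that starts autophagy, and AKAP10, an anchor of protein kinase A, stayed near 0 at 0.14 and -0.092 without LPS, and RASD1 was at -0.24. MAP2K4, the only gene of this group before PMP22, was at -0.36 without LPS and 0.20 with LPS.

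The genes of chromatin and transcription from PMP22 on had medians of -0.91 without LPS and -1.05 with LPS, with 4 of 4 below 0 in each. All 6 genes of the group, before and from PMP22 on, had medians of -0.68 and -0.70. NCOR1, a corepressor of nuclear receptors that recruits a histone deacetylase (chr17:16029065-16218185, minus strand), had the most counts of this group. Its level was 177, 191 and 169 CPM in scramble and 87.7, 91.97 and 76.9 CPM in KD. With LPS it was 139, 143 and 167 CPM and 62.6, 70.3 and 77.01 CPM. The groups did not overlap, and the log2 fold changes were -1.06 (standard error 0.087) and -1.1 (standard error 0.10). RAI1 was at -0.97 and -1.0, and the zinc finger gene ZNF287 at -0.86 and -1.31. MED9, a Mediator subunit, was at -0.017 and -0.099. Before PMP22, CHD3, an ATPase of the NuRD complex, was at -0.50 and -0.39, and the histone demethylase gene KDM6B at -0.088 and -0.041.

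Of the genes of RNA, DNA and protein handling from PMP22 on, 4 of 4 lay below 0 in each LPS state, with medians of -0.59 and -0.65. Across the whole group of 8 genes the medians were -0.071 without LPS, with 4 below 0, and -0.45 with LPS, with 8 below 0. ALKBH5, an RNA m6A demethylase, was at -1.2 and -0.94. COPS3, a subunit of the COP9 signalosome, was at -0.83 and -0.73. The topoisomerase gene TOP3A had smaller differences, at -0.34 and -0.58. UBB, a ubiquitin gene (chr17:16380798-16382745, plus strand), had the most counts of the group. It was at 289.6, 302 and 292 CPM in scramble and 264, 261 and 259 CPM in KD, and at 314, 332 and 317 CPM and 285, 312 and 301 CPM with LPS. Its KD libraries lay below the scramble libraries by a narrow margin, with log2 fold changes of -0.17 (standard error 0.068) and -0.10 (standard error 0.071), and 33.4% of its 31-base words occur in other genes. Before PMP22, WRAP53 of telomerase assembly, the ribosomal protein gene RPL26, RANGRF, which binds Ran, and ELAC2 of tRNA processing ran from 0.027 to 0.43 without LPS and from -0.65 to -0.0063 with LPS.

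The 7 genes of metabolism and mitochondria from PMP22 on lay below 0 in each LPS state, with medians of -0.97 and -1.19. Across the whole group of 12 genes the medians were -0.51 and -0.78, with 10 below 0 in each. After ALDH3A2 came SHMT1, the cytosolic serine hydroxymethyltransferase of folate metabolism, at -1.36 and -1.48, and PEMT, which makes phosphatidylcholine from phosphatidylethanolamine, at -1.28 and -1.19. PLD6 of the outer mitochondrial membrane was at -0.97 and -1.44. PIGL of GPI-anchor synthesis and TTC19 of complex III assembly had smaller differences, at -0.53 and -0.50 without LPS and -0.81 and -0.75 with LPS. The mitochondrial nucleotidase gene NT5M was at -0.32 (standard error 0.44), and its groups overlapped. Before PMP22, COX10 of heme A synthesis was at 0.072 and 0.16 and PFAS of purine synthesis at -0.31 and -0.35. The mitochondrial carrier gene SLC25A35 was at -0.60 and -0.96. SLC25A35 shares 25.02% of its 31-base words, mostly with RANGRF, which shares 68.0%, so their counts are uncertain.

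The 3 genes of membrane traffic from PMP22 on lay below 0 in both LPS states, with medians of -1.01 and -1.24. All 6 genes of the group had medians of -0.48 and -0.40, with 5 below 0 in each state. EPN2, an epsin of clathrin-coated pits (chr17:19215615-19336715, plus strand), was at 95.6, 85.7 and 90.1 CPM in scramble and 44.4, 45.8 and 44.1 CPM in KD. With LPS it was at 80.05, 65.8 and 72.4 CPM and 28.3, 31.3 and 33.1 CPM. The groups did not overlap, the log2 fold changes were -1.01 (standard error 0.078) and -1.24 (standard error 0.10), and 28.3% of its 31-base words are shared. TOM1L2, an endosomal sorting adaptor, was at -1.06 and -1.26, and SMCR8, a partner of C9orf72 in autophagy, at -0.64 and -0.63. Before PMP22, the SNARE genes VAMP2 and STX8 were at 0.25 and -0.32 without LPS, and TRAPPC1, a subunit of a vesicle tether, at -0.057.

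In the group of the cytoskeleton, centrosome, cilium and membrane, 5 of 6 genes from PMP22 on lay below 0 in each LPS state. Of the whole group, 5 of 9 did so in each state, with medians of -0.52 and -0.25. PMP22 itself (chr17:15229773-15272292, minus strand) had the most counts of the group. Its level was 657, 637 and 642 CPM in scramble and 425, 413 and 417 CPM in KD, and 537, 574 and 621 CPM against 343, 317 and 336 CPM with LPS. Its log2 fold changes were -0.62 (standard error 0.067) and -0.80 (standard error 0.076), and no KD library reached a scramble library. LLGL1, of cell polarity, was at -1.19 and -1.25, and FLII, an actin-binding member of the gelsolin family, at -1.17 and -1.12. B9D1, of the ciliary transition zone, was at -0.52 (standard error 0.24) with overlapping groups. Before PMP22, NDEL1, a regulator of dynein, was higher at 0.44 and 0.58, and the centriole gene CNTROB was at 0.19 and 0.40.

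With LPS the KD difference had nearly the same size. The median log2 fold change of the 32 genes from PMP22 on was -0.81, a 1.75-fold lower level, and 30 of them lay below 0, beside 47.9% of all genes. That of the 18 genes before PMP22 was -0.030, and that of all 15981 genes tested was 0.025. In this contrast, too, 26 of 50 genes were lower and 3 higher by the threshold, beside 14.2% and 12.7% of all genes. From PMP22 on, 23 were lower and none higher. The log2 fold change was -1 or less in 14 genes, beside 8.87% of all genes, and 29 genes were lower with no overlap of the groups, beside 20.6%. Another 5 were higher with no overlap, beside 20%. By the threshold in both LPS states, 23 genes were lower and 3 were higher, the last being NDEL1, GAS7 and HS3ST3B1. The share of all genes past it in both states was not computed, so nothing is read from these counts.

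The common shift was also read in each library, as the median over genes of log2 CPM minus the mean of the scramble libraries in the same LPS state. Over the 32 genes from PMP22 on it ran from -0.89 to -0.79 in the KD libraries and from -0.86 to -0.82 in the KD libraries with LPS. The means of the 3 medians were -0.85 ± 0.056 and -0.85 ± 0.020 (SD, n = 3). The scramble libraries themselves lay within 0.036 of 0 in either LPS state. They form the mean they are set against, so values near 0 follow in part from the measure. Before PMP22 the medians of the KD libraries ran from -0.12 to 0.066 without LPS and from -0.067 to 0.025 with LPS. Since the block and the split at PMP22 were chosen on these values, the gap between the groups is a description.

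The genes did not share 1 size of difference. From PMP22 on, the standard deviation over genes within a library was 0.56 to 0.63 in KD and 0.57 to 0.67 in KD with LPS. In scramble it was 0.14 to 0.15 and in scramble with LPS 0.14 to 0.26, where each library contributes to the mean it is set against. Gene by gene, the KD difference with LPS followed that without LPS. Over the 50 genes Pearson's r was 0.92 and Spearman's rho 0.89, given as a description because genes are not independent replicates. These values come from separate libraries, but both KD contrasts chose the genes, so their likeness is not an independent replication. The sign was the same in 43 genes, 45 differed by under 0.5, and the median of the differences was -0.046.

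**Figure D3:**
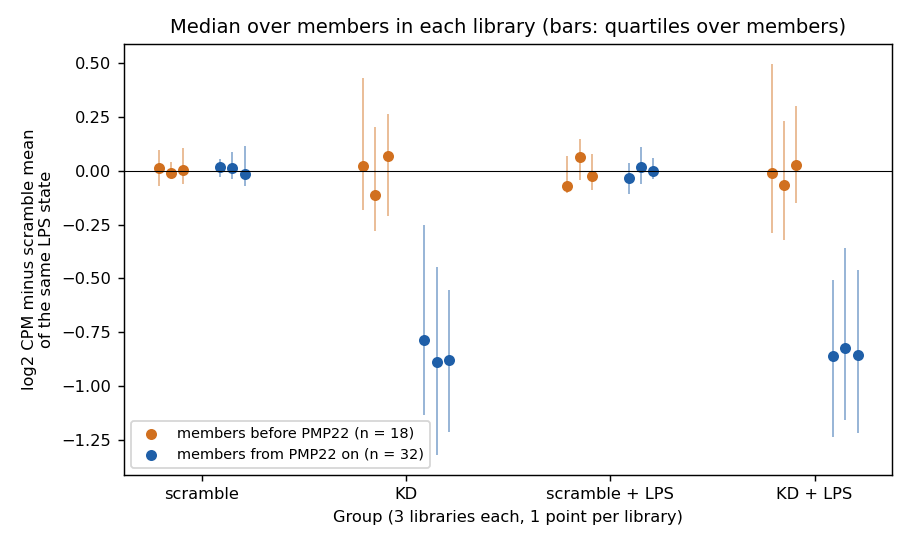
Median over genes of log2 CPM minus the scramble mean of the same LPS state (y axis) in each of the 12 libraries (x axis, by group), with bars for the quartiles over genes. The 18 genes before PMP22 are orange and lie near 0, and the 32 from PMP22 on are blue and lie between -0.89 and -0.79 in KD and between -0.86 and -0.82 in KD with LPS.

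Place within the block, length and base composition were set beside the size of the difference. Within the 32 genes from PMP22 on, Spearman's rho with the log2 fold change was -0.13 for position, -0.20 for exon length and -0.19 for GC content. For total counts it was -0.38, with a Pearson's r of -0.15, and in the 18 genes before PMP22 rho with total counts was 0.015. The 16 genes on the plus strand had a median of -0.93 and the 16 on the minus strand a median of -0.73. Over all 50 genes rho with position was -0.57, which carries the step at PMP22. These are descriptions across genes of the same libraries.

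The response to LPS was a contrast that the choice of genes did not use, although the libraries of both KD contrasts also entered the LPS contrasts. In scramble adipocytes 11 of the 50 genes fell and 3 rose after LPS, beside 8.38% and 5.9% of all genes, with a median log2 fold change of -0.093 over the 50. In KD adipocytes 11 fell and 2 rose, beside 6.03% and 5.32%, with a median of -0.14. With 1 library left out, 6 to 10 fell in scramble (6 without scramble replicate 2) and 4 to 8 in KD (4 without KD with LPS replicate 1 or 2). Of the genes that fell, 6 did so in both cell populations, PFAS, HS3ST3A1, RAI1, ALKBH5, EPN2 and MAP2K3, and RASD1 rose in both. The share of all genes that fell in both populations was not computed, so nothing is read from this count. With each library left out in turn, RAI1, HS3ST3A1 and RASD1 kept their calls in both populations. The calls of PFAS, ALKBH5 and MAP2K3 in KD and of EPN2 in scramble were each lost in 5 of 6 cases, and that of PFAS in scramble in 3 of 6. In each population 4 of 18 genes fell before PMP22 and 7 of 32 from PMP22 on. Among chromosome 17 genes with at least 600 counts, 12.1% of those before WRAP53 and 10.2% of those after MAP2K3 fell in scramble. In KD these shares were 9.35% and 7.4%. The shares over all genes include genes with as few as 10 counts.

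Promoter sequences of the genes of the block were searched for motifs, since LPS acts through NF-kappaB and AP-1, and those of MAP2K3 and RASD1 are shown. RefSeq promoters on GRCh38.p14, from 250 bases before to 50 bases after the start, matched 46 of the 50 genes and not PLD6, TRPV2, SLC25A35 and GAS7. Both strands were searched for 3 motifs, none of which contains another. The kappaB motif, GGGA, any base, then TTTCC, was in 0 of 46 promoters of the block and in 0.579% of 27305 promoters of the table. The AP-1 motif TGANTCA was in 3 of 46, those of NCOR1, MED9 and MAP2K3, and in 7.76% of all. The CRE motif TGACGTCA was in 2 of 46, those of TRAPPC1 and HS3ST3A1, and in 1.98% of all. A match is a description of letters in this window only. The promoter of MAP2K3, which fell with LPS, lies at chr17:21284461-21284760 on the plus strand, and that of RASD1, which rose, at chr17:17496346-17496645 on the minus strand. Both are shown 5′ to 3′ on the gene's strand, and capitals mark the AP-1 motif.
MAP2K3: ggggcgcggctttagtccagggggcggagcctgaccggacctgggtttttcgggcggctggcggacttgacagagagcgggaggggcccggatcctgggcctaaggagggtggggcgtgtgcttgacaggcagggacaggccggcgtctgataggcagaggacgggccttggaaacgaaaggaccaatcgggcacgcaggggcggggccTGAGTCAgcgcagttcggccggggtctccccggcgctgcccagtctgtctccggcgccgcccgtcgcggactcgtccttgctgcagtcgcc
RASD1: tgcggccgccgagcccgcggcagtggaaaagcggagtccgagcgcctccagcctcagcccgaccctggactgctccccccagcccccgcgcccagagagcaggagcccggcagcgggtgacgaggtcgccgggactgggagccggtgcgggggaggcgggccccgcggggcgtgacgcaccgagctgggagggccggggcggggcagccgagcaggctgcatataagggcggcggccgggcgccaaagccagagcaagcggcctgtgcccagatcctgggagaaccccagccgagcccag
The capitals in MAP2K3 stand upstream of the RefSeq start and span the GENCODE start of the gene at 21284672, and none of the 3 motifs was found in the window of RASD1.

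RASD1 encodes a small GTPase first found as a dexamethasone-induced Ras protein, and dexamethasone was part of the culture medium of all groups. Its gene lies at chr17:17494437-17496395, minus strand. Its level was 28.3, 19.6 and 29.1 CPM in scramble and 57.7, 82.04 and 67.6 CPM after LPS, and 25.3, 22.6 and 16.9 CPM in KD and 58.5, 54.1 and 47.2 CPM after LPS. It rose 2.71 times in scramble and 2.47 times in KD, with log2 fold changes of 1.44 (standard error 0.16) and 1.3 (standard error 0.14) and adjusted p of 9.6e-05 and 1.9e-05 by edgeR. No library without LPS reached a library with LPS, and the interaction of KD with LPS was -0.13 (standard error 0.23), with an adjusted p of 0.94. The other genes that rose did so by less. ALDH3A2 and TRAPPC1 rose in scramble, by log2 fold changes of 0.37 (standard error 0.10) and 0.28 (standard error 0.083), with adjusted p of 0.030 and 0.041. TRAPPC1 was at 28.8, 28.7 and 30.2 CPM in scramble and 35.9, 34.7 and 35.2 CPM after LPS, and at 29.4, 24.6 and 30.2 CPM in KD and 32, 31.02 and 31.2 CPM after LPS. In scramble its groups did not overlap. FLCN rose in KD, from 21.4, 17.97 and 18.5 CPM to 28.1, 25.1 and 27.4 CPM, by 0.48 (standard error 0.12) on the log2 scale, at an adjusted p of 0.016. In scramble FLCN was at 28.7, 30.8 and 24.6 CPM and 31.04, 35.5 and 30.3 CPM after LPS, with an adjusted p of 0.23. The calls of ALDH3A2, TRAPPC1 and FLCN were lost when certain libraries were left out in turn, with adjusted p of up to 0.14, 0.16 and 0.069, and those of RASD1 were kept.

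Among the genes that fell in both populations, RAI1 (chr17:17681458-17811453, plus strand) was at 125, 134 and 113 CPM in scramble and 69.1, 87.5 and 74.6 CPM after LPS. In KD it was at 68.5, 55.4 and 65.3 CPM and 34.8, 43.99 and 36.3 CPM after LPS. The LPS libraries lay below in both populations, with log2 fold changes of -0.67 (standard error 0.099) and -0.72 (standard error 0.11) and adjusted p of 7.4e-04 and 6.2e-04. HS3ST3A1 (chr17:13494032-13601929, minus strand) was at 41.5, 37.6 and 36.4 CPM in scramble and 26.8, 25.5 and 22.4 CPM after LPS. In KD it was at 36.9, 32.3 and 40.7 CPM and 19.2, 22.01 and 25.4 CPM. This enzyme adds 3-O-sulfate to heparan sulfate, and its log2 fold changes were -0.62 (standard error 0.10) and -0.72 (standard error 0.13), with adjusted p of 0.0015 and 0.0017. PFAS, ALKBH5 and EPN2 had log2 fold changes of -0.45, -0.55 and -0.30 with LPS in scramble and -0.50, -0.30 and -0.53 in KD.

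MAP2K4, HS3ST3B1, MPRIP, COPS3 and MAPK7 fell past the threshold in scramble only, with log2 fold changes from -0.52 for MAPK7 to -0.25 for MPRIP. When single libraries were left out, the call of MAP2K4 was lost in 6 of 6 cases, that of MPRIP in 5, that of HS3ST3B1 in 4 and that of COPS3 in 2, and that of MAPK7 was kept. GAS7, ELAC2, PMP22, CENPV and TOP3A passed it in KD only, where the call of TOP3A was lost in 6 of 6 cases, that of CENPV in 5, that of GAS7 in 4 and that of ELAC2 in 3, and that of PMP22 was kept. CENPV and GAS7 fell farthest there, with log2 fold changes of -1.47 (standard error 0.43) and -0.74 (standard error 0.20) and adjusted p of 0.041 and 0.024. Their values in scramble were -1.31 and -0.40, with adjusted p of 0.15 and 0.30, and neither had an interaction past the threshold (adjusted p of 1.00 and 0.76). Left-out libraries took the adjusted p of CENPV and GAS7 in KD up to 0.12 and 0.091. A call in 1 population only is not shown to differ between them.

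**Figure D4:**
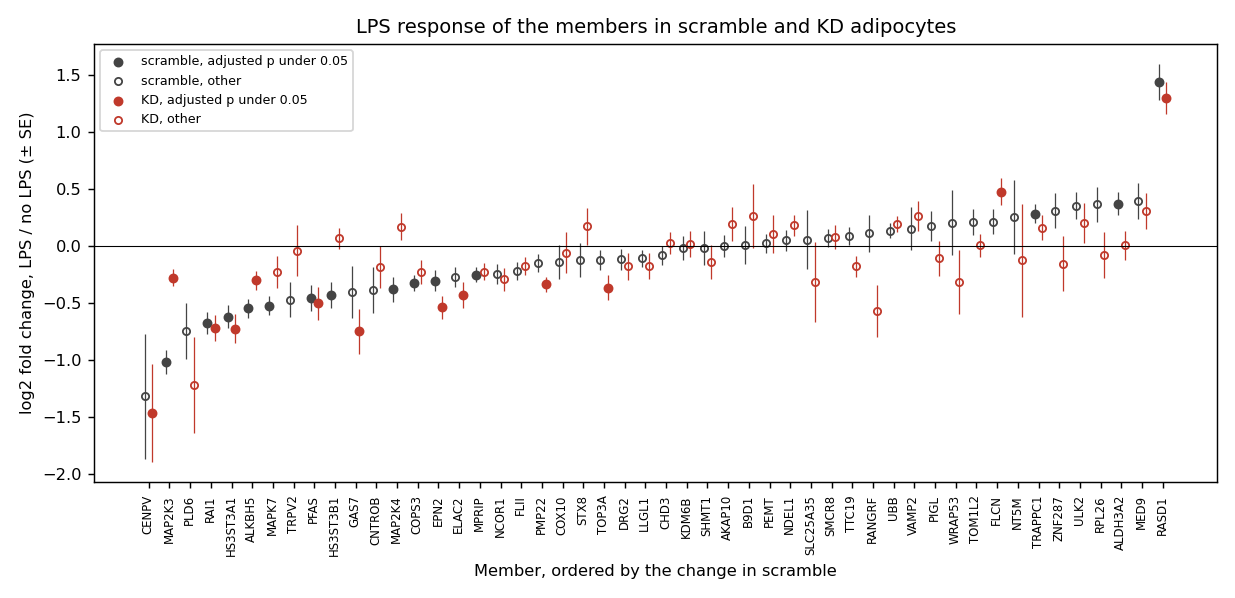
Log2 fold change with LPS (y axis, with bars of ± 1 standard error) of the 50 genes (x axis, ordered by the change in scramble) in scramble (grey) and KD (red). Filled points have an adjusted p under 0.05. RASD1 stands highest in both populations at 1.44 and 1.3, and MAP2K3 stands at -1.01 in scramble and -0.28 in KD.

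MAP2K3, the p38 kinase kinase at the inner end of the block (chr17:21284672-21315232, plus strand), was the gene whose KD difference changed with LPS. Its level was 246, 272 and 214 CPM in scramble and 136, 123 and 136 CPM in KD. With LPS it was 104, 126 and 129.8 CPM in scramble and 106, 112 and 109 CPM in KD. The scramble libraries without LPS lay above all others, and the groups with LPS overlapped each other. With LPS it was 2.02 times lower in scramble, a log2 fold change of -1.01 (standard error 0.11) with an adjusted p of 7.0e-05, and 1.21 times lower in KD, a log2 fold change of -0.28 (standard error 0.076) with an adjusted p of 0.031, which rose to up to 0.12 when 1 library was left out. The KD difference was -0.88 (standard error 0.093) without LPS and -0.14 (standard error 0.091) with LPS. The interaction was 0.75 (standard error 0.13) on the log2 scale, with an adjusted p of 0.0078 by edgeR over 17173 genes.

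MAP2K3 was the 1 of 50 genes with an interaction past the threshold, beside 1.28% of all genes. At an unadjusted p under 0.05 there were 6 of 50, beside 1907 of 17173 genes. The next by adjusted p was its relative MAP2K4, at 0.56 (standard error 0.15) with an adjusted p of 0.092, followed by HS3ST3B1 at 0.51 (standard error 0.15) with an adjusted p of 0.12. By DESeq2 these were past the threshold too, with adjusted p of 0.029 for MAP2K4 and 0.045 for HS3ST3B1. The lowest interaction was that of RANGRF, at -0.67 (standard error 0.28) with an adjusted p of 0.37. Over the 50 genes the median interaction was -0.041 with a standard deviation of 0.29. The scramble and KD libraries that chose the genes enter this test.

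**Figure D5:**
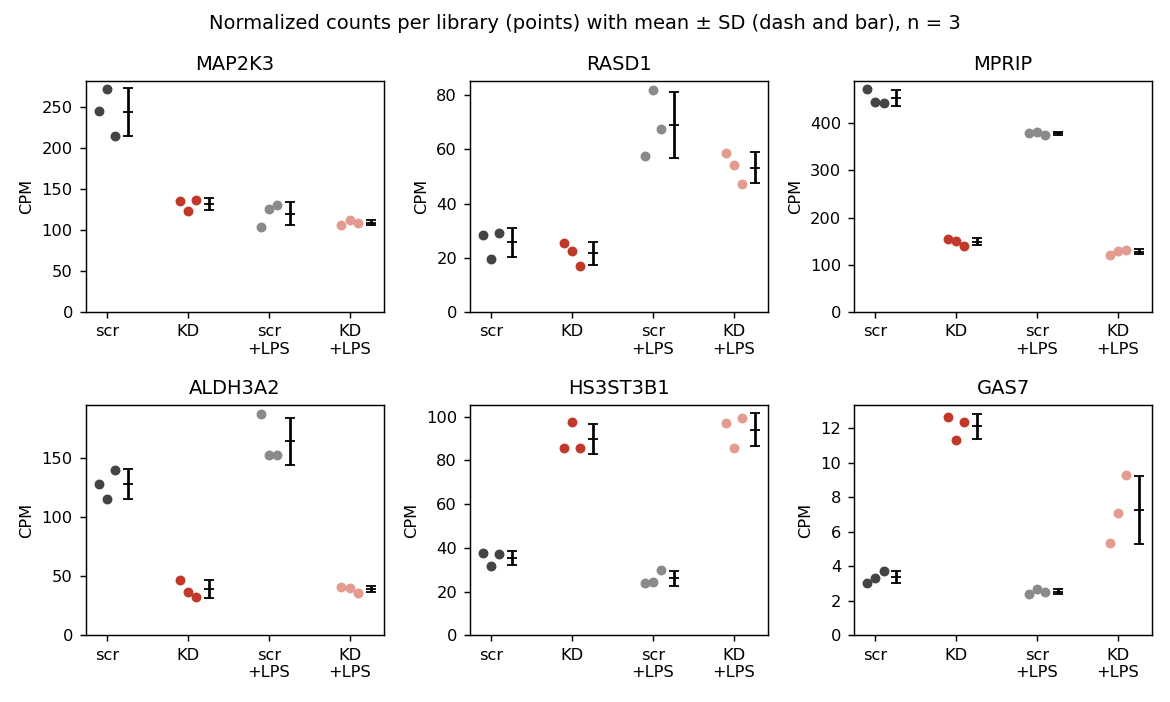
CPM (y axis, from 0) of 6 genes in the 3 libraries of each group (points), with the mean and SD. MAP2K3 is highest in scramble without LPS, RASD1 is higher with LPS in both populations, MPRIP and ALDH3A2 are lower in KD, and HS3ST3B1 and GAS7 are higher in KD.

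Reads shared between genes limit single values. Of the 50 genes, 8 share over 20% of their 31-base words with other genes, the length that kallisto matches, and 19 share under 5%. WRAP53 shares 25.3%, PLD6 27.5%, B9D1 27.3% and RPL26 20.5%. Exons of 24 genes overlap an exon of another coding gene, 21 of them on the opposite strand. The library kit keeps the strand, but whether counting used it is not given in the sources used here, so reads of such pairs may not be separated.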

How the data were processed

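RNA-seq libraries of 12 samples were analysed, 3 for each shRNA without and with LPS. The authors pseudoaligned reads with kallisto 0.44.0 (GRCh38) and deposited estimated counts per gene name, neither scaled for depth nor length. The submitters' processing notes also name bcl2fastq 2.19 and DESeq2 1.32.0. The annotation behind the index is not given in the sources used here. The row without a gene name, 0.235% to 0.306% of a library, was left out.

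The deposited estimated counts were rounded. In R 4.3.3, genes with at least 10 counts over the libraries of a fit were scaled by TMM and tested by edgeR 4.0.16 (glmQLFit, glmQLFTest) with Benjamini-Hochberg adjustment over all genes and a threshold of 0.05. Each contrast used its 6 libraries and the interaction all 12. The standard error is the log2 fold change divided by the square root of F. Levels are CPM, and shifts per library used a prior count of 0.5. The KD contrasts chose the genes, so the counts of these genes past the threshold there are a description and no p is printed. With 3 libraries against 3, an exact permutation test cannot go below 0.1 (two-sided), so none was run for single genes. The depth of 28.4 to 53.8 M counts (M, 1e6) limits genes with few counts.

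Positions come from GENCODE 44 (GRCh38), which held 28647 of the 28901 names, and promoters from RefSeq. Shared 31-base words and exon overlaps were counted on GENCODE transcripts. The genes and lists were chosen with earlier results of these data known. Values in every library were given for the 3 lowest and 3 highest genes in KD without LPS, genes with an interaction past the threshold, the 3 largest rises and falls among called genes in each LPS contrast, and the gene with most counts in each role group. Among genes outside the list, the nearest to each end of the block were named, and 1 of them is not reported here. No 2 libraries of a group were alike within sampling noise (chi-square per degree of freedom 17.8 to 45.2). Alternatives were DESeq2 1.42.0, other scalings and filters, a fit on 12 libraries, fits without 1 library each and a replicate block.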

Additional observations from a re-analysis of the deposited data

Results flagged for a closer look

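The KD difference of MAP2K3 differed between the cells without and with LPS by a test of the difference itself. The interaction was 0.75 on the log2 scale (standard error 0.13, adjusted p = 0.0078 by edgeR's quasi-likelihood test), with the KD level below scramble in 3 of 3 libraries without LPS and within the range of scramble with LPS. It kept its direction and stayed past the threshold in 19 of 19 alternatives, with values of 0.66 to 0.84 and adjusted p of 2.7e-05 to 0.030. These alternatives are refits of the same libraries. The scramble and KD libraries that chose the genes enter this test, so its p is not independent of that choice. This p also measures the spread between libraries of a group, which are not taken as independent experiments.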

How the results depend on the processing

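Without TMM, with library size only, the median over all genes moved to 0.13 without LPS and 0.11 with LPS, and the KD medians moved with it, to -0.39 over the 50 genes, 0.15 before PMP22 and -0.74 from PMP22 on without LPS, and to -0.40, 0.054 and -0.72 with LPS. Over all genes of the block with at least 600 counts the KD medians were -0.34 and -0.38. Without 5 genes with close paralogues or copies (RPL26, UBB, HS3ST3A1, HS3ST3B1 and MAP2K3), the median with LPS was -0.65. Without the 8 genes that share over 20% of their 31-base words, a choice made after seeing the data, the medians were -0.50 and -0.48. In KD without LPS, leaving out each library in turn gave medians of -0.53 to -0.44 (50 genes), -0.088 to 0.069 (before PMP22) and -0.87 to -0.79 (from PMP22 on). With LPS it gave -0.58 to -0.48, -0.071 to 0.049 and -0.89 to -0.76. Genes lower numbered 23 to 26 and 22 to 25. With LPS in scramble 6 to 10 fell and 1 to 3 rose, and in KD 4 to 8 fell and 1 to 2 rose. The interaction was called in 1 to 2 genes, the second being HS3ST3B1 without scramble with LPS replicate 3 (adjusted p = 0.047). It was called in 2 genes with no filter on low counts (HS3ST3B1, adjusted p = 0.0499) and in 3 by DESeq2. In the fit on 12 libraries 1 gene rose with LPS in scramble. With the replicate number as a block, 17 genes fell with LPS in scramble in place of 11, and 26 genes were lower in KD without LPS. Same-numbered libraries deviated together with correlations of -0.095 to 0.22 over the 4 contrasts and not all above 0.1, so they are taken to share only a number. Of 28 single-gene calls in the LPS contrasts and the interaction, 12 held in each alternative run and 16 were lost in at least 1, and none reversed. The cause was not tested. Depth limits CENPV most, at 779 counts in all.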
